A study of Homo sapiens with 4 samples.

Results

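Hyaluronan and dermatan sulfate are long sugar chains of the extracellular matrix, and 10 genes for making, cutting and binding them were examined in UMUC3 and SW780, 2 cell lines of human bladder cancer. The genes were HAS2, HAS3, UGDH, HYAL2, CD44, VCAN, CHSY1, CHST11, DSE and DSEL, out of 32485 genes listed for either line. HAS2, DSE and DSEL were chosen because their levels differed between the libraries compared here, so their differences are given as a description and support nothing. The other 7 were chosen for what they do, with earlier results of these data known. Each line was grown as control cells (labelled shNT, with the genotype given as WT for UMUC3) and as cells with SCD1 knocked down by lentivirus (shSCD1). SCD1, gene symbol SCD, is an enzyme that puts a double bond into saturated fatty acids. Each of the 4 groups held 1 RNA sequencing library, and the labels do not say how many cultures or hairpins it came from. Replicates to check a difference against were thus lacking, no test was made inside either line, and words such as "higher" hold for the libraries at hand.

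The first of the 2 columns of each deposited table was read as shNT and the second as shSCD1, since the tables carry the name shSCD1 and divide the second by the first. This reading is not spelled out in the headers, and if it is wrong all directions below turn round. The one check was SCD itself, which counted 6033 reads in shNT and 1938 in shSCD1 of UMUC3, and 20178 and 2353 in SW780. Levels are given as CPM, the counts per 1000000 reads of a library, and between genes as CPM per kb of exons. The libraries held 22818368 to 34087871 reads over the listed genes. A ratio is log2((shSCD1 CPM + 1)/(shNT CPM + 1)), which understates differences of weakly expressed genes. Folds are of CPM, with an exact Clopper-Pearson 95% interval of the reads turned into a fold, and they cover counting error only. A gene was called higher or lower by size when its ratio was at least 1 in either direction (about 2-fold) with at least 1 CPM in either library of the line.

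Hyaluronan is spun out through the plasma membrane by synthases encoded by HAS1, HAS2 and HAS3, from sugar nucleotides that include UDP-glucuronic acid. It is cut by hyaluronidases such as HYAL2 and bound by the cell surface receptor CD44 and by versican (VCAN), a large matrix proteoglycan. Versican also carries chondroitin sulfate, a related chain that is built on a core protein. Dermatan sulfate arises when the epimerases encoded by DSE and DSEL turn glucuronic acid of a chondroitin chain into iduronic acid.

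All 10 genes passed the minimum of 1 CPM in UMUC3. Of these, 1 was higher (DSE) and 2 were lower (HAS2 and DSEL), and these are the 3 genes that had been picked for their differences. Among all 14063 genes kept in UMUC3, 2.47% were higher and 2.18% were lower, 4.64% together. In SW780, 8 of the 10 passed, as HAS2 and HYAL2 had 0 reads in both libraries. There 1 gene was higher (CHST11) and 1 was lower (DSEL), beside 1.48% higher and 1.06% lower among 12880 genes, 2.54% together. The median ratio of the members was −0.33 in UMUC3, where the median of all genes was 0.04, and 0.11 in SW780, where it was −0.01. Both medians include genes chosen for these ratios (HAS2, DSE and DSEL in UMUC3, DSE and DSEL in SW780), and are a description only. Among the other 7 members in UMUC3 the ratios ran from −0.84 (CHST11) to 0.28 (UGDH). The members nearest to the limit without reaching it were CHST11 in UMUC3 (−0.84) and DSE in SW780 (0.93), and the nearest past it were DSE in UMUC3 (1.30) and CHST11 in SW780 (1.32).

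**Figure D1:**
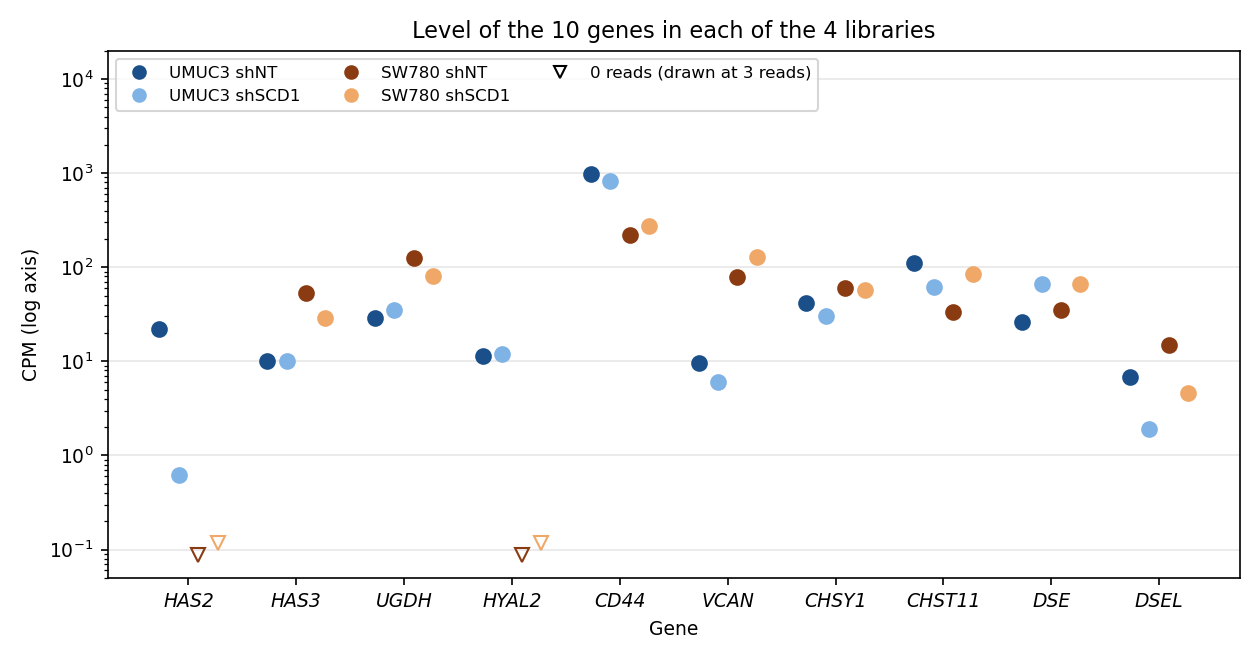
Level of each of the 10 genes in the 4 libraries, in CPM on a log axis, 1 point per library; open triangles mark 0 reads and are drawn at the level of 3 reads. CD44 has the highest CPM in every library, and HAS2 and HYAL2 have reads in UMUC3 alone.

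The start sites of DSE are shown because DSE has 4 of them in RefSeq (GRCh38.p14) with very different base composition, while DSEL has 1. The tables give 1 value per gene, so the share of each start in these reads is not known. In the 250 bases before the 4 DSE starts, G and C made up 62.0%, 56.4%, 37.6% and 74.0%, in chromosomal order, against a median of 58% over 35116 promoters of that length. The letters GGGCGG, the core of a GC box, were searched on both strands, with overlapping matches counted. They occurred 1, 1, 0 and 3 times, and 42.6% of all promoters held at least 1. DSEL had 80.0% G and C before its start (chr18:67516721-67516970, minus strand), which 3.28% of promoters reached, and 7 matches, which 1.12% reached. That window lies wholly in an exon of DSEL in GENCODE 29 and is not printed. The last pair of DSE windows is printed as far as it lies outside every GENCODE 29 exon, 250 and 173 bases, with the matches in capitals. Both are on the plus strand of GRCh38, 5′ to 3′, at chr6:116369569-116369818 and chr6:116370697-116370869.
DSE start A: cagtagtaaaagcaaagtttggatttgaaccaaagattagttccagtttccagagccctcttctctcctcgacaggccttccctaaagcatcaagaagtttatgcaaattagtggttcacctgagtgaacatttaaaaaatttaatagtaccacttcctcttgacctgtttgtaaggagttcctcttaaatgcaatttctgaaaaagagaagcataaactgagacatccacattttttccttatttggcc
DSE start B: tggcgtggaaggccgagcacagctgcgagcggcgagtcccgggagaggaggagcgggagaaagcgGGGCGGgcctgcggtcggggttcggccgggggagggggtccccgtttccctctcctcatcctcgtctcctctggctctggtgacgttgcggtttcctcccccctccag
Start A had no match in its window, and the printed stretch of start B held 1 of its 3. A match of letters is a description of the sequence and not a binding site.

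In the control libraries HAS2 was the synthase gene with the higher level in UMUC3 and HAS3 in SW780, while HAS3 was the higher one in both knockdown libraries. HAS2, on the minus strand of chromosome 8 (121612116 to 121641390 on GRCh38, as are all positions from GENCODE 29 below), is the main synthase gene of many mesenchymal cells. It counted 505 reads in UMUC3 shNT and 20 in UMUC3 shSCD1, or 22.1 and 0.615 CPM. Its CPM was 36.0-fold lower in the knockdown library (23.1 to 59.5), and 3 of the other genes kept had a lower ratio. The authors' deposited table gives HAS2 a log2 fold change of −5.18 and a GFOLD value, which is shrunk towards 0 by counting error, of −4.51. In SW780 both libraries had 0 reads of HAS2, which allows up to 0.0880 CPM in shNT and 0.117 CPM in shSCD1 (3 reads each). The control library of UMUC3 was thus at least 251-fold above that of SW780.

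HAS3, which encodes another of the synthases, lies on the plus strand of chromosome 16 (69105564 to 69118719). In UMUC3 it counted 229 reads in shNT and 326 in shSCD1, which is 10.0 CPM in each, and the fold of 0.998 had an interval of 0.840 to 1.19. In SW780 it counted 1833 and 737 reads, or 53.8 and 28.8 CPM, a 1.86-fold lower level in shSCD1 (1.71 to 2.03) and a ratio of −0.88. HAS3 was also 5.36-fold higher in the control library of SW780 than in that of UMUC3. The remaining synthase, HAS1, had 27 and 17 reads in SW780, under 1 CPM in both libraries, and was not analysed in UMUC3.

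Per kb of exons, HAS2 stood at 5.28 CPM and HAS3 at 2.06 in UMUC3 shNT, so HAS2 made up 71.9% of the level of the 2 synthases. In UMUC3 shSCD1 HAS2 was at 0.147 CPM per kb beside 2.06 for HAS3, a share of 6.65%. The sum of the synthases went from 7.34 to 2.20 CPM per kb, 3.33-fold lower. In SW780 HAS3 held 96.9% of the summed level in shNT and 95.2% in shSCD1, and the sum went from 11.4 to 6.22 CPM per kb, 1.83-fold lower. The lower sum in UMUC3 is that of HAS2, which was chosen for its difference, and is a description only.

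**Figure D2:**
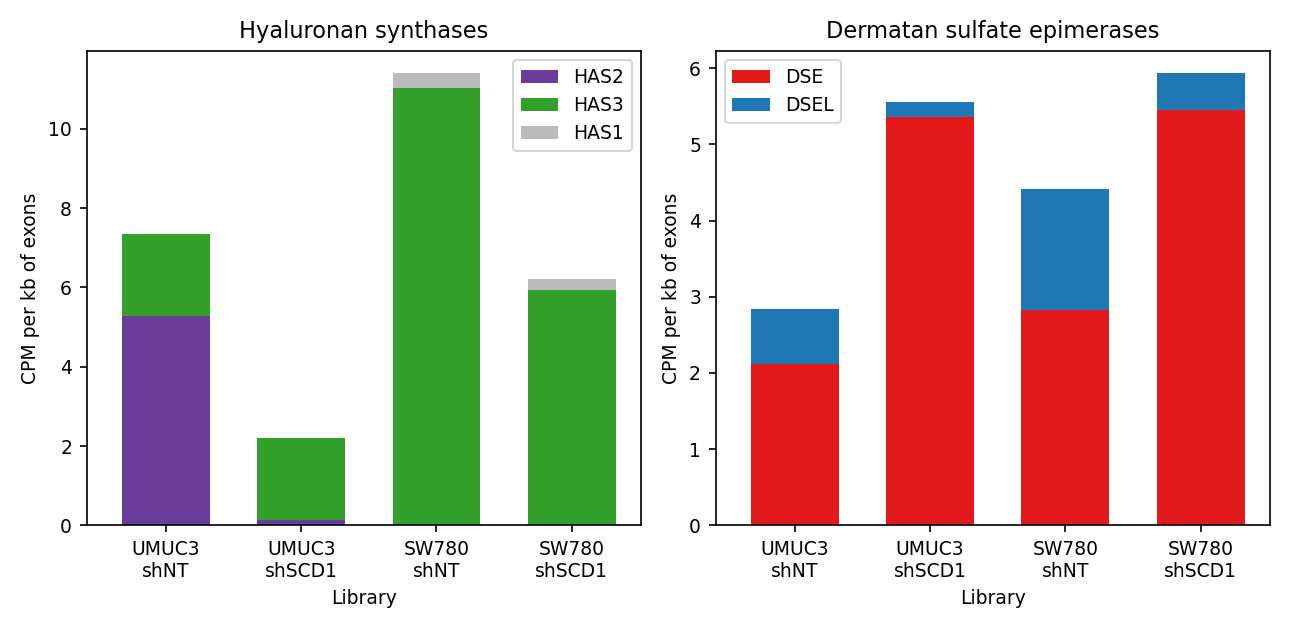
Stacked levels of the hyaluronan synthases (left) and of the dermatan sulfate epimerases (right) in the 4 libraries, in CPM per kb of exons, with 1 library per bar and no error bars. HAS2 fills most of the synthase bar in UMUC3 shNT alone, and DSEL is a smaller part of the epimerase bar in shSCD1 than in shNT of both lines.

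UGDH encodes the dehydrogenase that makes UDP-glucuronic acid, a building block of both hyaluronan and chondroitin, and lies on the minus strand of chromosome 4 (39498755 to 39528311). It counted 663 and 1155 reads in UMUC3 shNT and shSCD1, or 29.1 and 35.5 CPM, 1.22-fold higher in the knockdown library (1.11 to 1.35). In SW780 it counted 4236 and 2081 reads, or 124 and 81.4 CPM, 1.53-fold lower (1.45 to 1.61). UGDH was thus on opposite sides of its control in the 2 lines, and none of these ratios reached the size limit.

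HYAL2, a hyaluronidase gene on the minus strand of chromosome 3 (50317790 to 50322906), had 257 and 387 reads in UMUC3. Its levels of 11.3 and 11.9 CPM gave a fold of 1.06 with an interval of 0.900 to 1.24, so no difference was detectable at this depth. In SW780 HYAL2 had 0 reads in both libraries, and the UMUC3 control lay at least 128-fold above the limit of 3 reads. The neighbouring hyaluronidase genes HYAL1 and HYAL3 were likewise at 0 reads in both SW780 libraries.

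The genes around HYAL2 were then read in chromosomal order, a choice made after its values were seen. In SW780 a run of 21 protein-coding genes in the table, from RBM5 to MAPKAPK3 (chromosome 3, 50088908 to 50649297, 560 kb), stayed under 1 CPM in both libraries. Of these, 18 had 0 reads in both, and the whole run held 0 reads in shNT and 11 in shSCD1, from RBM5, GNAI2 and MAPKAPK3. In UMUC3 shNT 12 of the 21 were at 5 CPM or more, and all 21 together came to 462 CPM. The genes flanking the run had reads in SW780. RBM6 stood at 5.37 CPM in shNT and 5.40 in shSCD1, and DOCK3 at 24.3 and 25.0. In UMUC3 RBM6 was well above its SW780 level, at 66.7 and 80.7 CPM, while DOCK3 stood at 27.4 and 34.6. Of 9990 genes at 5 CPM or more in UMUC3 shNT, 270 (2.70%) were under 1 CPM in SW780. The number of DNA copies was not measured.

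**Figure D3:**
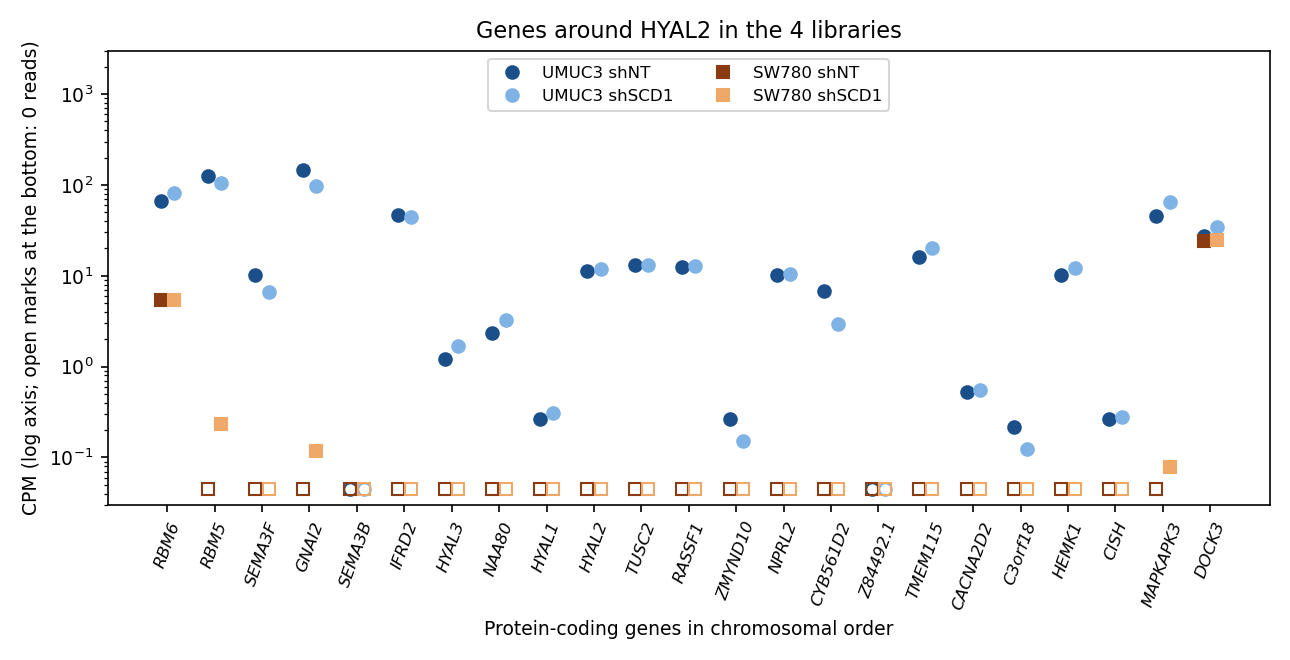
Level of each protein-coding gene around HYAL2, in chromosomal order, in CPM on a log axis for the 4 libraries (circles UMUC3, squares SW780); open marks at the bottom stand for 0 reads. The 21 genes between RBM6 and DOCK3 have 0 to 6 reads in the SW780 libraries, and 12 of them are at 5 CPM or more in UMUC3 shNT.

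CD44, the main cell surface receptor of hyaluronan, lies on the plus strand of chromosome 11 (35138870 to 35232402) and had the highest CPM of the 10 genes in all 4 libraries, a measure that does not allow for gene length. It counted 22112 reads in UMUC3 shNT and 27045 in UMUC3 shSCD1, or 969 and 831 CPM, 1.17-fold lower in the knockdown library (1.15 to 1.19). In SW780 its 7574 and 6981 reads made 222 and 273 CPM, 1.23-fold higher (1.19 to 1.27). Both differences are small, and how far replicate cultures of a line vary by this much was not measured. Per kb, CD44 stood at 159 and 136 CPM in UMUC3, far above the other members. In SW780 shNT its 36.4 CPM per kb was just under the 36.7 of UGDH, while in shSCD1 it stood at 44.8 and UGDH at 24.0.

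VCAN, on the plus strand of chromosome 5 (83471465 to 83582303), encodes versican, whose link-type domain binds hyaluronan and whose core carries chondroitin or dermatan sulfate. It counted 218 and 194 reads in UMUC3, or 9.55 and 5.96 CPM, 1.60-fold lower in shSCD1 (1.31 to 1.95). In SW780 it counted 2678 and 3291 reads, or 78.6 and 129 CPM, 1.64-fold higher (1.56 to 1.73). The control library of SW780 held 8.22 times the VCAN level of the UMUC3 control. HAPLN1, the link protein that ties versican to hyaluronan, was at 113 CPM in both UMUC3 libraries and had 0 reads in SW780.

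CHSY1 encodes a chondroitin synthase that lengthens the chain, and lies on the minus strand of chromosome 15 (101175723 to 101251932). It had 947 and 986 reads in UMUC3, or 41.5 and 30.3 CPM, 1.37-fold lower in shSCD1 (1.25 to 1.50). In SW780 it had 2073 and 1463 reads, or 60.8 and 57.3 CPM, and the interval of the fold (0.880 to 1.01) included 1.

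CHST11 encodes a sulfotransferase that adds sulfate to the galactosamine of chondroitin, and lies on the plus strand of chromosome 12 (104455295 to 104762014). It had 2562 and 2021 reads in UMUC3, or 112 and 62.1 CPM, 1.81-fold lower in shSCD1 (1.70 to 1.92). In SW780 it had 1134 and 2160 reads, or 33.3 and 84.5 CPM, 2.54-fold higher (2.36 to 2.73). The UMUC3 control was 3.38-fold above the SW780 control, but the SW780 knockdown library lay above the UMUC3 knockdown library. In SW780 95 of the genes kept had a higher ratio than CHST11. The authors' deposited table gives log2 fold changes of −0.94 in UMUC3 and 1.35 in SW780.

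The epimerase genes DSE and DSEL differed in opposite directions in both lines, which is the pattern they were picked for. DSE, on the plus strand of chromosome 6 (116254173 to 116444860), had 595 reads in UMUC3 shNT and 2144 in shSCD1, or 26.1 and 65.9 CPM, 2.53-fold higher (2.31 to 2.77). In SW780 it had 1185 and 1712 reads, or 34.8 and 67.0 CPM, 1.93-fold higher (1.79 to 2.08). The control libraries of the 2 lines differed by 1.33-fold in DSE.

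DSEL, a paralog of DSE on the minus strand of chromosome 18 (67506582 to 67516980), had 156 reads in UMUC3 shNT and 62 in shSCD1, or 6.84 and 1.91 CPM, 3.59-fold lower (2.66 to 4.90). In SW780 it had 514 and 118 reads, or 15.1 and 4.62 CPM, 3.26-fold lower (2.67 to 4.02). DSEL was the only member called by size in both lines, and the ratios of −1.43 and −1.52 lay close together. The share of all genes called in both lines was not computed. Since DSEL was chosen for its change in these libraries, the likeness of the lines is a description only. Its counts are low, and its intervals are the widest after that of HAS2.

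Per kb of exons, DSE made up 74.7% of the level of the 2 epimerases in UMUC3 shNT and 96.4% in shSCD1. In SW780 the share was 64.1% in shNT and 91.8% in shSCD1. The ratio of DSE to DSEL per kb went from 2.96 to 26.8 in UMUC3 and from 1.79 to 11.2 in SW780. The sum of both was 1.96-fold higher in shSCD1 of UMUC3 (2.84 and 5.56 CPM per kb) and 1.35-fold higher in SW780 (4.41 and 5.93). CHST14, the sulfotransferase gene that acts on dermatan chains, stood at 8.63 and 9.28 CPM in UMUC3 and at 37.3 and 45.4 in SW780, under the size limit in both.

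**Figure D4:**
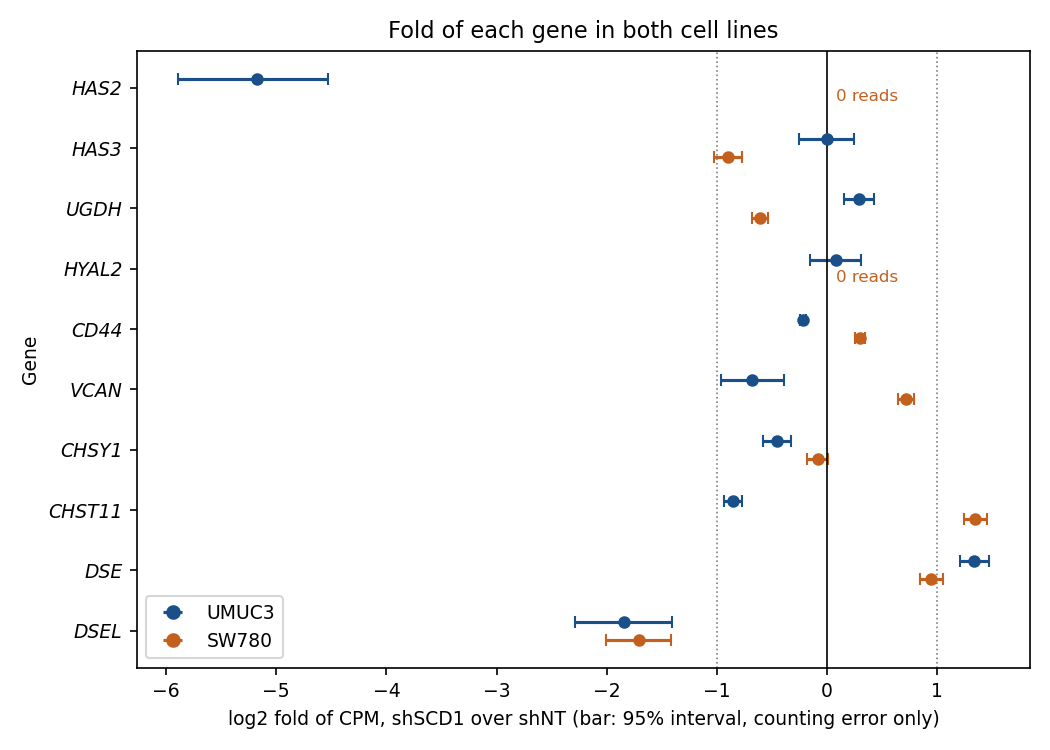
Log2 fold of CPM (shSCD1 over shNT, no added CPM) of each of the 10 genes in UMUC3 and SW780, with the exact 95% interval for counting error as bars and dotted lines at 2-fold. DSE lies right of 0 and DSEL left of 0 in both lines, and CD44, VCAN, CHST11 and UGDH lie on opposite sides.

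Some reads may belong to other genes, because whether strand was used in counting is not given in the sources used here. Of the exonic bases of DSEL, 36.8% also lie in exons of the non-coding genes AC110597.3 and AC114689.3 on the opposite strand, which were not analysed here. For DSE the share was 10.3%, with AL050331.1, Z84488.2 and TSPYL1, and the ratios of TSPYL1 were 0.13 in UMUC3 and 0.04 in SW780. TSPYL1 counted more reads than DSE in every library, 1827 and 2850 in UMUC3 and 5251 and 4056 in SW780. For HAS2 the share was 4.80%, with HAS2-AS1, which had 14 reads in UMUC3 shNT and 0 in shSCD1. For HYAL2 it was 11.2% with TUSC2, and for HAS3 6.90% with CHTF8, whose ratios were 0.47 in UMUC3 and 0.04 in SW780. CHTF8 counted more reads than HAS3 in every library, 1492 and 2958 in UMUC3 and 1961 and 1515 in SW780. How many reads of such partners entered the counts of the members was not tested. The share was 7.24% for UGDH, 3.05% for VCAN and 0.840% for CD44, while CHSY1 and CHST11 shared no exonic base.

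The members were then set beside 13 lists of genes that serve the same chains, 123 genes in all, with the members included. Without the members, 70 genes passed the minimum in UMUC3, of which 2 were higher and 0 were lower, beside 2.47% and 2.18% of all genes. These were GFPT2, an amidotransferase gene at the entry to amino sugar synthesis, and EXTL3, a glycosyltransferase gene of heparan sulfate. GFPT2 went from 25.3 to 62.8 CPM (2.49-fold, 2.26 to 2.73) and EXTL3 from 20.3 to 44.3 CPM (2.18-fold, 1.96 to 2.42). In SW780 76 other genes passed, of which 4 were higher (SRGN, ADAMTS15, HS3ST2 and GPC4) and 2 were lower (UST and HS6ST2), beside 1.48% and 1.06% of all genes. The median ratio over all tested genes of the lists was 0.04 in UMUC3 and 0.11 in SW780.

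Among the chondroitin and dermatan sulfotransferases, 7 of 8 passed the minimum in each line. In UMUC3 none of these 7 was called by size, with a median ratio of −0.15. In SW780 1 was higher (CHST11, the member given above) and 1 was lower (UST, which adds sulfate to uronic acid residues), with a median of 0.34. Among all genes 4.64% were called in UMUC3 and 2.54% in SW780, with medians of 0.04 and −0.01. UST went from 17.4 to 7.20 CPM in SW780 (2.42-fold lower, 2.04 to 2.87) and from 16.4 to 13.3 in UMUC3. Of the core proteins, SRGN, the serglycin of secretory granules, went from 10.0 to 24.4 CPM in SW780 (2.44-fold higher, 2.14 to 2.79) and from 83.5 to 86.5 in UMUC3. Of the proteases that cleave versican, ADAMTS15 went from 1.76 to 5.17 CPM in SW780 (2.94-fold higher, 2.15 to 4.05). In UMUC3 ADAMTS15 had 8 reads in shNT and 0 in shSCD1, under 1 CPM in both. The other 2 proteases that passed in SW780 were not called.

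The lists of the linker, of chain polymerization and of chain degradation held no gene called by size in either line. They had 7, 5 and 7 genes kept in UMUC3 and 7, 6 and 7 in SW780. Among all genes 4.64% were called in UMUC3 and 2.54% in SW780, so no call among so few genes is near the background. The medians of these lists were 0.16, 0.04 and 0.02 in UMUC3 and 0.14, 0.17 and 0.02 in SW780. The 15 donor supply genes that passed, UGDH among them, had medians of −0.02 (UMUC3) and −0.07 (SW780). Of the hyaluronan degradation genes 3 passed in each line, with no call, which is likewise near the background, and their medians were 0.27 and −0.24. CEMIP2, a cell surface protein linked to hyaluronan breakdown, stood at 4.08 and 5.19 CPM in UMUC3 and at 161 and 177 in SW780. HMMR, the receptor for hyaluronan-mediated motility, stood at 263 and 245 CPM in UMUC3 and at 94.0 and 117 in SW780.

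**Figure D5:**
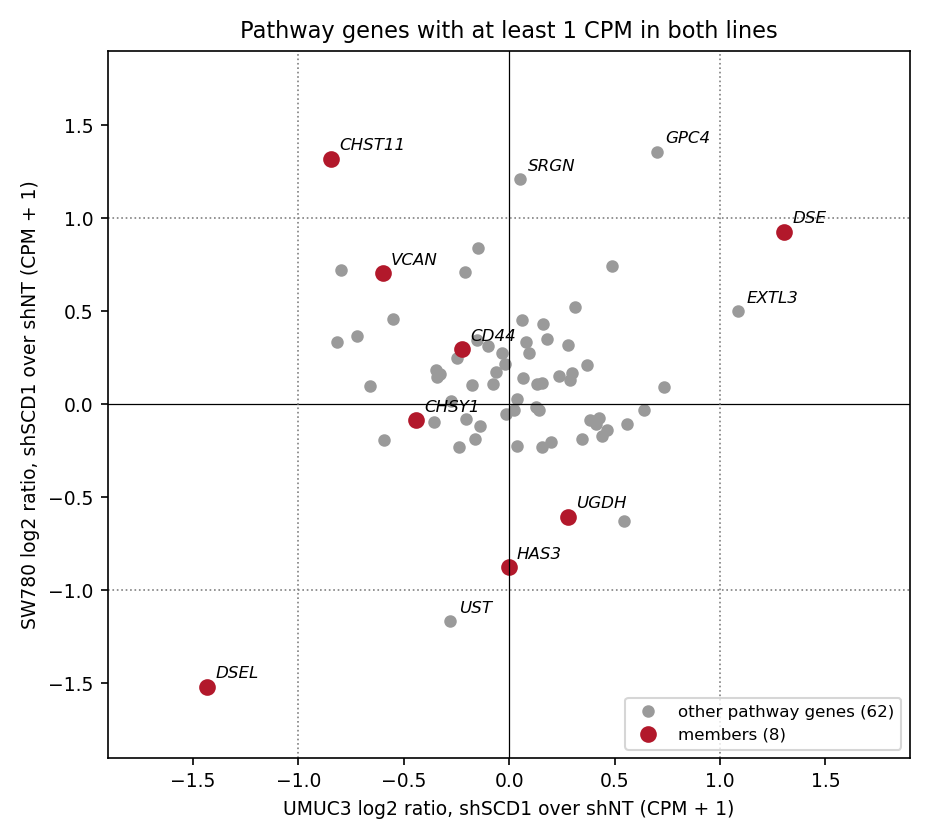
Log2 ratio (CPM + 1) in SW780 against that in UMUC3 for the 70 genes of the lists that passed the minimum in both lines, 8 members in red and 62 others in grey, with dotted lines at the size limit. DSE and DSEL lie in opposite corners, and CHST11 is high in SW780 and below 0 in UMUC3.

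Across the 8 members that passed in both lines, the ratio had opposite signs in 4 with intervals clear of no change in each line. Such intervals cover counting error only, and were clear for 8 of the 10 members kept in UMUC3 and 7 of the 8 in SW780. The share of all genes with opposite signs was not computed, so the count cannot be read as particular to these members. The SW780 ratio minus the UMUC3 ratio was 2.16 for CHST11, 1.31 for VCAN, 0.52 for CD44 and −0.88 for UGDH. The same difference was −0.87 for HAS3, 0.36 for CHSY1, −0.38 for DSE and −0.09 for DSEL. That of DSEL turned to 0.06 with 0.25 CPM added in place of 1, and to 0.22 by the log2 fold changes of the authors' deposited table. None of these differences was tested, since each line had 1 library per group. In the control libraries 6 of the 10 genes were higher in SW780 (HAS3, UGDH, VCAN, CHSY1, DSE and DSEL) and 4 in UMUC3 (HAS2, HYAL2, CD44 and CHST11). The same split over all genes was not computed, so this one only lists where each member was higher. The tables of the 2 lines list different genes, and levels set across them share no normalization beyond the total.

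A count model over all 4 libraries with cell line as a term treats the 2 lines as replicates of each condition. With edgeR's quasi-likelihood test and Benjamini-Hochberg adjustment, 0 of 13087 genes were called at an adjusted p of 0.05, and 425 had an unadjusted p under 0.05. DESeq2 called 27 genes (0.206%). Of the 7 members chosen by function, 0 were called by either tool, and the lowest adjusted p was 0.981 with edgeR. The fit takes 1 knockdown effect for both lines, so opposite moves such as those of CHST11, VCAN, CD44 and UGDH average out in it. The lack of a call therefore says little about these members. HAS2, DSE and DSEL are given no p, because these libraries were used to choose them.

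Markers of the lines differed in the same libraries. Of 18 urothelial genes, 14 are listed for UMUC3, of which 6 reached 1 CPM and 3 were at 0 in both libraries, and their summed level was 536 CPM in shNT and 264 in shSCD1. KRT18 (372 and 170 CPM) and KRT8 (148 and 78.3) held most of these sums, which thus say little of the other genes. KRT7 (4.43 and 1.26 CPM) and GATA3 (3.20 and 1.91) were lower in shSCD1, while PPARG (6.14 and 10.1) and FOXA1 (1.80 and 2.24) were higher. In SW780 15 of the 18 reached 1 CPM, and the sums were 12877 and 10532 CPM. UMUC3 thus carried few of the markers of the tissue of origin. Mesenchymal and fibroblast genes summed to 2885 and 2322 CPM in UMUC3 (11 of 12 listed, 1 at 0). VIM alone held 2794 and 2254 CPM of these sums, which thus say little of the other genes of the list. COL3A1, for example, stood at 0.175 and 0.0615 CPM in UMUC3 and at 139 and 203 CPM in SW780. In SW780 the mesenchymal and fibroblast genes summed to 223 and 385 CPM (4 of 12 at 0). Of the 7 that reached 1 CPM there, 3 were higher in shSCD1 (VIM, FAP and CDH2) and 0 lower. Among all genes of SW780 1.48% were higher, and in UMUC3 0 of the 6 that passed were called. Of the urothelial genes 0 were higher and 2 lower in each line, beside 2.18% of all genes lower in UMUC3 and 1.06% in SW780. These were KRT18 and KRT7 in UMUC3, and GRHL3 and UPK1A in SW780. Endothelial genes stayed under 0.1 CPM in sum in UMUC3 and at 5.63 and 5.71 CPM in SW780, and of the blood genes CD68 alone reached 1 CPM in either line. The part of these marker differences in the results was not tested, and fewer cells of a type and less RNA per cell cannot be told apart in such libraries.

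The genes whose ratios were nearest to those of the 3 members chosen by change were listed by distance on the log2 scale, among protein-coding genes with at least 5 CPM. For HAS2, over UMUC3 alone and 10274 candidates, they were ANKRD1 (80.3 and 5.07 CPM), INHBA (12.4 and 0 CPM) and CPA4 (59.2 and 3.66 CPM). For DSE, over both lines and 9566 candidates, they were CRACD, GNAO1 and MME, with ratios of 1.37, 1.40 and 1.05 in UMUC3 and 0.95, 0.82 and 0.90 in SW780. For DSEL they were TNC, RBMS3 and SEMA3A, with ratios of −1.44, −1.30 and −1.53 in UMUC3 and −1.41, −1.41 and −1.32 in SW780. Likeness here rests on 1 or 2 ratios per gene and says no more than that. For HAS2 it also depends on the 1 CPM added, since HAS2 (0.615 CPM) and INHBA were low or absent in UMUC3 shSCD1. With 0.25 CPM added the HAS2 ratio was −4.69 in place of −3.84.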

How the data were processed

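TruSeq libraries of the 4 groups were read on an Illumina NovaSeq, per the labels' protocols, and build hg38 is named in the submitters' processing notes. For aligner, counter, annotation and use of strand the labels and headers name nothing (not given in the sources used here). Per line 1 table was deposited by the authors, with a log2 fold change, a GFOLD value at a setting of 0.01 (on a log2 scale) and 2 columns headed RPKM, per the file headers. The empirical FDR that the authors deposited was not used. The deposited values of the columns headed RPKM are a signal of reads scaled to 1 total with no gene length in it, so the design's CPM was computed from whole reads. Over 99.9% of the values came within 0.1 reads of a whole number, 100% of the low ones. HAS2 and HYAL2, unnamed in the SW780 table, were matched by Ensembl identifier.

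The members and lists were chosen with earlier results of these data known. Genes were named by rule: all members, genes of the lists called by size (up to 5 per list and line), SCD, overlapping partners and the 3 nearest genes by ratio. The other genes given with values (HAPLN1, CHST14, CEMIP2, HMMR, HAS1, HYAL1, HYAL3 and the genes around HYAL2) and markers were picked outside it. Exon lengths and positions came from GENCODE 29. Without molecular identifiers reads can be copies of 1 molecule, and intervals and floors (3 reads) hold for counting error alone. Python 3.11.15, R 4.3.3, edgeR 4.0.16 and DESeq2 1.42.0 were used, and the computations were tested on simulated data. Alternatives were the pseudocount, the filter, the scaling, the deposited fold changes and the length used.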

Additional observations from a re-analysis of the deposited data

Results flagged for a closer look

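For 4 members the ratio had opposite signs in the 2 lines, with intervals for counting error that lay clear of no change in each, and this difference was not tested. How often this holds among all genes was not computed. The SW780 ratio minus the UMUC3 ratio was 2.16 for CHST11 (−0.84 in UMUC3 and 1.32 in SW780) and 1.31 for VCAN (−0.60 and 0.71). It was 0.52 for CD44 (−0.22 and 0.30) and −0.88 for UGDH (0.28 and −0.60).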

How the results depend on the processing

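The genes called by size were the same under all 8 alternatives, DSE, DSEL and HAS2 in UMUC3 and CHST11 and DSEL in SW780. The number of members with opposite signs was 4 under each of the 5 alternatives run for it (the pseudocount, the 3 scalings and the deposited log2 fold change). The counts over the 13 lists ranged from 4 to 7 in UMUC3 (5 as reported) and from 7 to 10 in SW780 (8). The scaling moved no member's ratio by more than 0.024, and 1 sign turned among 108 ratios within a line, that of HYAL2 in UMUC3 under the authors' deposited log2 fold change (−0.005). Of the differences between the lines, that of DSEL turned from −0.09 to 0.06 with 0.25 CPM added and to 0.22 by the deposited log2 fold change. The DSE share depended on the length used. As a share of reads it was 79.2% in UMUC3 shNT, 69.7% in SW780 shNT and 93.6% in SW780 shSCD1, and by the longest coding transcript, an alternative chosen after seeing the data, it was 67.4% in SW780 shNT. Over all genes, with 0.25 CPM added 633 were higher and 471 lower in UMUC3, and 330 and 207 in SW780. With at least 5 CPM the numbers were 222 and 204 in UMUC3. By the deposited log2 fold change they were 639 and 627 in UMUC3 and 396 and 236 in SW780. By the GFOLD value 190 were higher and 300 lower in UMUC3, 38.8% higher against 53.1% as reported. No paired analysis was possible within a line because each group holds 1 library, and the fits with cell line as a term, which pair the libraries by line, are those of edgeR and DESeq2 given above (0 and 27 genes called).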

Other observations

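Heparan sulfate, the other large class of chains built on the same linker, was read from the same lists. In UMUC3 11 synthesis genes passed the minimum, of which 1 was higher (EXTL3) and 0 were lower, and 10 editing and core protein genes passed with no call, beside 4.64% of all genes called in UMUC3, so the count is near the background. In SW780 1 of 13 synthesis genes was higher and 1 was lower, both sulfotransferase genes, and 1 of 12 editing and core protein genes was higher, beside 2.54% of all genes called in SW780. HS6ST2 went from 49.5 to 14.4 CPM (3.44-fold lower, 3.07 to 3.86), and HS3ST2 from 18 to 76 reads, or 0.528 to 2.97 CPM (5.63-fold higher, 3.34 to 10.0). In UMUC3, where both stayed under 1 CPM, HS6ST2 had 2 reads in shNT and 26 in shSCD1, and HS3ST2 had 0 in both. The glypican gene GPC4 went from 14.6 to 39.1 CPM in SW780 (2.67-fold higher, 2.39 to 2.98) and from 7.45 to 12.8 in UMUC3. EXTL3 stood at 104 and 148 CPM in SW780, a ratio of 0.50 there.

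Of the genes within 1 Mb of DSE, none of those that passed the minimum was called by size in either line, and DSE itself was called in UMUC3 alone. Among all genes 4.64% were called in UMUC3 and 2.54% in SW780, so no call among so few neighbours is near the background. Of these neighbours 7 passed the minimum in UMUC3, with ratios of −0.26 to 0.48, and 8 in SW780, with ratios of −0.15 to 0.65. The 1 neighbour of HAS2 that passed in UMUC3, SNTB1, had a ratio of −0.32.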
